A study of Mus musculus with 2 samples.

Results

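The genes described here are 32 markers of smooth muscle cells and pericytes, the contractile and supporting cells of vessel walls and of the uterine muscle coat, read in RNA of mouse uterine stromal cells. They were chosen by name, as every probe set (a group of short probes for 1 transcript) that the platform annotation gives exactly 1 gene symbol, with that symbol on the list. All 32 genes were found, with 60 probe sets of 22626 that are not controls, and they are 32 of 12393 genes with a symbol. Of them, 19 belong to the contractile filaments and their attachments, 6 are regulatory and 7 are pericyte markers.

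Stromal cells were isolated by enzymatic digestion of uterine horns on day 5 of pregnancy, with the day of the vaginal plug as day 1, and total RNA was hybridised to 2 one-colour Affymetrix mouse arrays. The control group was floxed mice, listed as Hif2 alpha-intact, and the other group was conditional knockouts, listed as Hif2 alpha-null, in which floxed mice were crossed with mice carrying PRcre, a Cre recombinase driven by the progesterone receptor promoter. That promoter is active in uterine epithelium, stroma and muscle, so the deletion is not restricted to stromal cells. Cells of 3 animals per genotype were pooled on 1 array, so there was no replicate and no test, and every value describes these 2 arrays. The labels name Hif1, Hif2 alpha and Rac1 in different places as the deleted gene, and the second array is therefore called knockout-labelled. All of the genes named were measurable on the knockout-labelled array. Hif1a had signals of 721 and 1544, Epas1, which encodes Hif2 alpha, had 59.4 and 78.1, and Rac1 had 1038 and 757 on the control and the knockout-labelled array, each at its brightest probe set. Another probe set of Rac1 gave 664 and 332, lower by 2-fold, and 2 others of Hif1a gave log2 ratios of 1.38 and 0.52. Whether their probes lie inside the deleted part was not analysed here, and probes outside it check nothing.

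Smooth muscle cells contract when myosin slides along filaments of smooth muscle actin. Calcium bound to calmodulin switches on myosin light chain kinase, which phosphorylates the regulatory light chain of myosin, while tropomyosin, caldesmon and calponin sit on the actin filament and tune the reaction. Many of these genes are transcribed through serum response factor and its coactivator myocardin. Pericytes sit on capillaries under the endothelium and are held there by platelet-derived growth factor signalling. In the day 5 uterus, smooth muscle lies in the muscle coat and in arteries, and stromal cells that start to decidualize also make smooth muscle actin and desmin.

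Of the 32 genes, 31 were above the floor on both arrays, a signal of 19.7, and only Synpo2 was below it on both. At the brightest probe set of each gene, 7 of the 31 were lower by 2-fold or more in the knockout-labelled sample (22.6%), namely Csrp1, Myl9, Des, Mcam, Hspb7, Cnn1 and Myl6, where 13.0% of all 8593 genes compared passed that size. By any amount, 17 were lower, as were 55.3% of all genes. A single gene, Myocd, was higher by 2-fold or more, where 6.21% of all genes were. The median log2 ratio, knockout-labelled minus control, was -0.32 over the 31 genes and -0.10 over all genes compared. These counts changed with the scaling of the arrays, to 6 lower and 4 higher after each array was centred on its median and to 9 lower and 2 higher after the trend of ratio with signal was removed. With no replicate, the error was judged from how far 2 probe sets of a gene differ, an SD of 0.64 in the log2 ratio over 2660 genes. Over the 10 members that could be read this way the SD was larger, 0.86. The brightest probe set also had a higher ratio than the next, by 0.41 on average and by 0.40 in those members. The SD leaves out this offset and the spread between animals, pools and arrays. Since the RNA came from mixed digests, fewer cells of a type and less RNA per cell cannot be told apart.

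**Figure D1:**
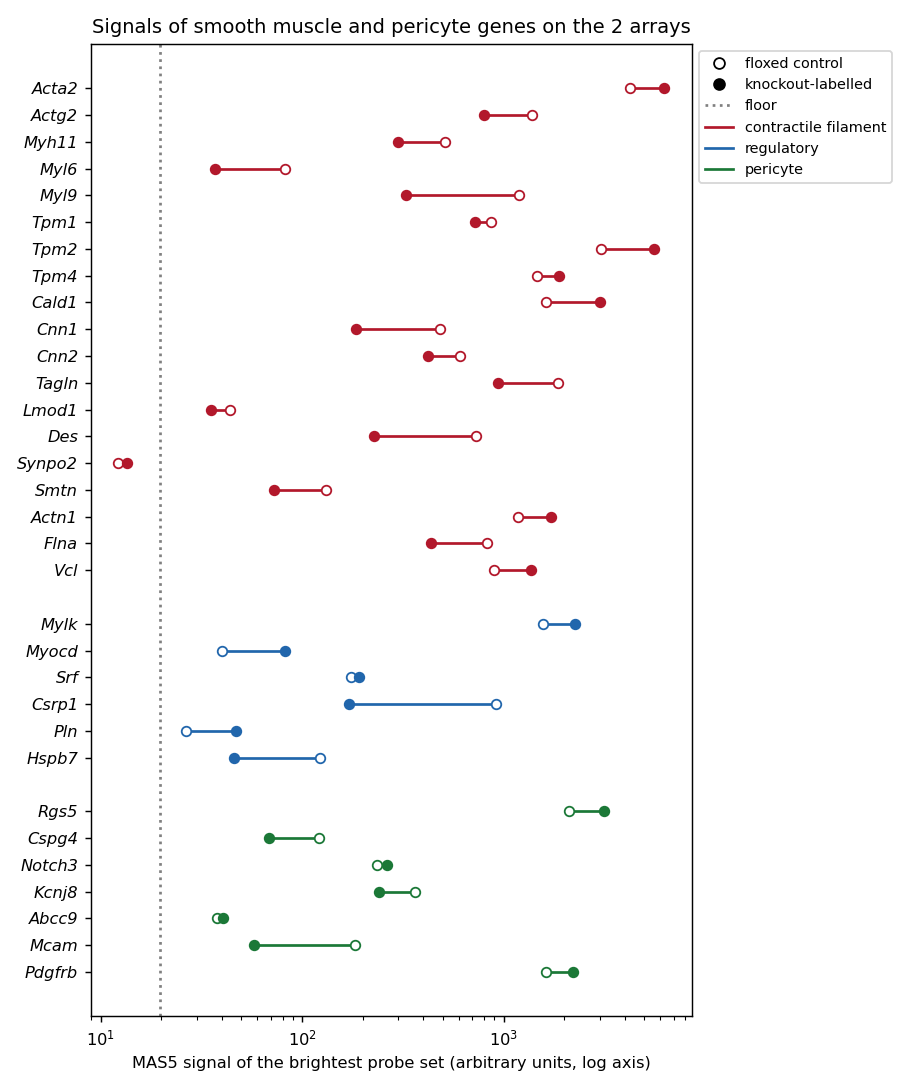
MAS5 signal (log axis, arbitrary units) of the brightest probe set of each gene on the floxed control array (open circles) and the knockout-labelled array (filled circles), 1 array each, coloured by role, with the floor of 19.7 as a dotted line. The longest lines to the left are those of Csrp1, Myl9, Des and Mcam, and Acta2, Tpm2 and Rgs5 were among the genes higher on the knockout-labelled array.

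The contractile filament genes did not all have ratios of the same sign, and the genes of the actomyosin filament itself had both signs. Acta2, smooth muscle alpha actin, was higher, its signal going from 4246 in the control to 6274 in the knockout-labelled sample (log2 ratio 0.56). Actg2, the gamma actin of visceral smooth muscle, was lower, with 1384 and 804 (log2 ratio -0.78). The 2 actins are close relatives, so a probe set of one may also catch RNA of the other, and the Acta2 probe set carries the suffix _s_at, which marks probes that can match several transcripts. A second Acta2 probe set was at the floor on both arrays. The Acta2 ratio is also smaller than the SD of 0.64. With the trend of ratio with signal removed, Acta2 was at 0.03 and Actg2 at -1.05, so opposite changes of the 2 actins were not settled.

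Myosin genes of smooth muscle were lower at their brightest probe sets. Myl9, the regulatory light chain that the kinase phosphorylates, stood at 1199.6 and 327 (log2 ratio -1.88), a fold of 3.67, and this was the lowest value of the contractile genes. Myl6, the essential light chain, stood at 82.6 and 37.1 (log2 ratio -1.16) at the only probe set given its name alone. Myh11, the smooth muscle myosin heavy chain, had signals of 515 and 301 (log2 ratio -0.78), but its other probe set had 28.5 and 65.9 (log2 ratio 1.21), so its direction was not settled. Myl6 is also open to doubt, since 2 further probe sets are annotated to it together with 2 predicted genes and were left out by the rule. They gave signals of 1871 and 514 (log2 ratio -1.86) and of 3733 and 3386 (log2 ratio -0.14).

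Tropomyosins lie along the actin filament and block or open its myosin sites, and their probe sets differed more than the genes did. Tpm2 was higher at its brightest probe set, with signals of 3052 and 5606 (log2 ratio 0.88), little different at the next (0.11) and lower at the third (-0.81). Tpm1 had signals of 870 and 719 (log2 ratio -0.28) at its brightest probe set and log2 ratios of -1.76 and 0.68 at 2 others. The single probe set of Tpm4, a tropomyosin of non-muscle cells and of smooth muscle, had signals of 1467 and 1884 (log2 ratio 0.36). Each of Tpm1 and Tpm2 makes several isoforms by alternative splicing, and which isoform a probe set reads was not analysed here.

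The actin-binding proteins of smooth muscle were mostly lower. Cnn1, calponin 1, which inhibits the myosin ATPase on actin, had signals of 483 and 186 (log2 ratio -1.38), a fold of 2.60. Cnn2, the calponin of non-muscle cells, had 608 and 423 (log2 ratio -0.52). Tagln, transgelin (SM22 alpha), which is among the earliest smooth muscle markers, had 1856 and 944 (log2 ratio -0.98), just short of 2-fold. Cald1, caldesmon, was the exception, with signals of 1627 and 3012 (log2 ratio 0.89) and of 526 and 983 (log2 ratio 0.90) at its 2 brighter probe sets and 388 and 272 (log2 ratio -0.51) at the third. Lmod1, leiomodin 1, which starts new actin filaments in smooth muscle, was dim, with 43.8 and 35.2 (log2 ratio -0.32).

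Among genes of the cell's scaffold, Des, desmin, the intermediate filament of muscle cells, was lowest, with signals of 729 and 228 (log2 ratio -1.67), a fold of 3.19, and its other probe set was at the floor on both arrays. Smtn, smoothelin, a protein of contractile smooth muscle, had 132 and 72.7 (log2 ratio -0.86). Synpo2, an actin-bundling protein of muscle Z-discs, was at 12.2 and 13.6, below the floor. Genes of the proteins that tie actin to the membrane had ratios of both signs. Flna, filamin A, which crosslinks actin, had 830 and 434 (log2 ratio -0.94). Vcl, vinculin, a protein of focal adhesions, had 897 and 1376 (log2 ratio 0.62). Actn1, alpha-actinin 1, which bundles actin, had 1179.7 and 1729.8 (log2 ratio 0.55), and its other probe sets gave 0.22 and 0.20, so all 3 were on the higher side. The ratios of Vcl and Actn1 are smaller than the SD of 0.64, and a split in direction was not settled. With the trend of ratio with signal removed, Vcl was at 0.34, Actn1 at 0.23 and Flna at -1.10.

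Over the 18 contractile filament genes compared, 4 (22.2%) passed 2-fold on the lower side, where 13.0% of all genes did, and none on the higher. By any amount, 12 were lower and 6 higher, and the median log2 ratio was -0.65. Without Myl6's single-name probe set, by reading Myl6 from its brightest shared probe set, the count was 3 and the median -0.42. Under all 10 other settings run that keep the 2-fold rule the median of this group stayed below that of all genes, by 0.25 (median over the probe sets of a gene) to 0.64 (trend with signal removed) on the log2 scale. Of the 18 genes, 13 have 1 probe set compared, which limits how far settings of probe set choice can move this median.

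The 6 regulatory genes held both the lowest and the highest ratio of all 31. Csrp1, a LIM protein of smooth muscle that binds alpha-actinin and zyxin and acts with serum response factor in the nucleus, had signals of 921 and 171 (log2 ratio -2.43), a fold of 5.37. Its other probe set had 213 and 34.6 (log2 ratio -2.62), so Csrp1 was the only gene of the 31 that was at least 2-fold lower at more than 1 probe set. However, both Csrp1 probe sets were designed from the same source sequence, so their agreement is not independent. Hspb7, a small heat shock protein of muscle, had 123 and 46.0 (log2 ratio -1.42), a second probe set at 22.8 and below the floor, with the third at the floor on both arrays. The 2 genes thus lay on the lower side at each probe set compared.

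The transcription factors of the program lay on the higher side when read at the brightest probe set. Myocd, myocardin, the coactivator of serum response factor in smooth and cardiac muscle, had signals of 39.8 and 81.9 (log2 ratio 1.04), close to the floor, and its other probe set was at the floor on both arrays. Srf, serum response factor, had 176 and 191 (log2 ratio 0.12), while its other probe set had 43.0 and a value below the floor, at least 2.18-fold lower. Mylk, myosin light chain kinase, the enzyme that starts contraction, had 1565 and 2250.2 (log2 ratio 0.52) at one probe set and 1908 and 1241 (log2 ratio -0.62) at another, with the third, a dim one, at 33.9 and 27.6 (log2 ratio -0.30). All 3 Mylk probe sets were designed from the same source sequence. Pln, phospholamban, which restrains the calcium pump of the sarcoplasmic reticulum, had 26.5 and 46.9 (log2 ratio 0.82), and its next probe set lay at the floor's edge with 19.8 and 15.9.

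Serum response factor binds the CArG box, a 10-base element of A and T bases between a CC and a GG, and its occurrence was read in the 250 bases before the RefSeq gene start (GRCm38.p6), where 27 of the 32 genes had a match. The pattern reads the same on both strands. A CArG box was found for 5 of these 27 genes (18.5%), where 1.62% of all 27025 genes in the table had one. They were 4 of 16 contractile filament genes (Myl9, Cnn2, Myl6 and Vcl), 1 of 5 regulatory genes (Srf, with 2 boxes) and none of 6 pericyte genes. The stretches around the boxes are shown because these genes share the element. They are written 5′ to 3′ on the strand of the gene, with the boxes in capitals, and lie at chr2:156775283-156775332 (plus strand) for Myl9, chr10:79988524-79988573 (plus) for Cnn2, chr10:128493030-128493079 (minus) for Myl6, chr14:20929151-20929200 (plus) for Vcl and chr17:46556195-46556264 (minus) for Srf.
Myl9: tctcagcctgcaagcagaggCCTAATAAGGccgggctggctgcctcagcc
Cnn2: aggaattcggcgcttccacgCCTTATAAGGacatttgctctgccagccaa
Myl6: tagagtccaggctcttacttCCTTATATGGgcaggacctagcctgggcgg
Vcl: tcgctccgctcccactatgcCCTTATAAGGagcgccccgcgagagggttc
Srf: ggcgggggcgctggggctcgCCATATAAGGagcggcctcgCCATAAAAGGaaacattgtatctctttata
Cnn2 and Vcl carry the identical box, 56 and 227 bases before the start, with log2 ratios of -0.52 and 0.62. Myl9, with its box 161 bases before the start, was lower (-1.88), as was Myl6 (-1.16), whose box lies 50 bases before the start. The boxes of Srf itself, 82 and 62 bases before the start, stand before a gene with a log2 ratio of 0.12. Its other probe set was at least 2.18-fold lower. The ratios of Cnn2, Vcl and Srf are smaller than the SD of 0.64, so a difference in direction was not settled. Myl6 gave -0.14 at its brightest shared probe set. Whether the element has a part in the ratios was not tested. A match is a description of the letters and not a binding site, and boxes farther from the start were not searched. Only exact matches were counted, so boxes with a differing base were missed. A gene without a match here may still have such an element.

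Pericyte markers had ratios of both signs, with 1 of 7 (14.3%) past 2-fold, on the lower side, where 13.0% of all genes compared were. Their median log2 ratio was 0.11 at the brightest probe sets and -0.59 with the median over the probe sets of a gene. All ratios on the higher side, and that of Kcnj8 on the lower, were smaller than the SD of 0.64. Mcam (CD146), an adhesion molecule of pericytes, smooth muscle and endothelium, was the lowest, with signals of 183 and 57.8 (log2 ratio -1.66), a fold of 3.16, at its only probe set. Cspg4, the NG2 proteoglycan, had 121 and 68.7 (log2 ratio -0.82) at one probe set and 54.6 and 41.0 (log2 ratio -0.41) at the other. Kcnj8, the Kir6.1 pore of the ATP-sensitive potassium channel, had 362 and 239.7 (log2 ratio -0.59), and Abcc9, the sulfonylurea receptor that forms the same channel, had 37.8 and 40.7 (log2 ratio 0.11).

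Rgs5, a regulator of G protein signalling and a common pericyte marker, had signals of 2123 and 3157 (log2 ratio 0.57) and of 313 and 479 (log2 ratio 0.62) at 2 probe sets, but 421 and 316 (log2 ratio -0.42) and 129 and 76.2 (log2 ratio -0.76) at the others. Of these 4, the last 3 were designed from the same source sequence. Notch3, the Notch receptor of vascular mural cells, had 235 and 264 (log2 ratio 0.17), and its dim probe set had 23.9 and a value below the floor. Pdgfrb, the receptor through which pericytes are recruited, had 1615 and 2223 (log2 ratio 0.46) at its brightest probe set and 184 and 43.3 (log2 ratio -2.09) at the other. The probe sets of Pdgfrb were thus the farthest apart of any gene here, by 2.55 on the log2 scale, and its direction was not settled.

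**Figure D2:**
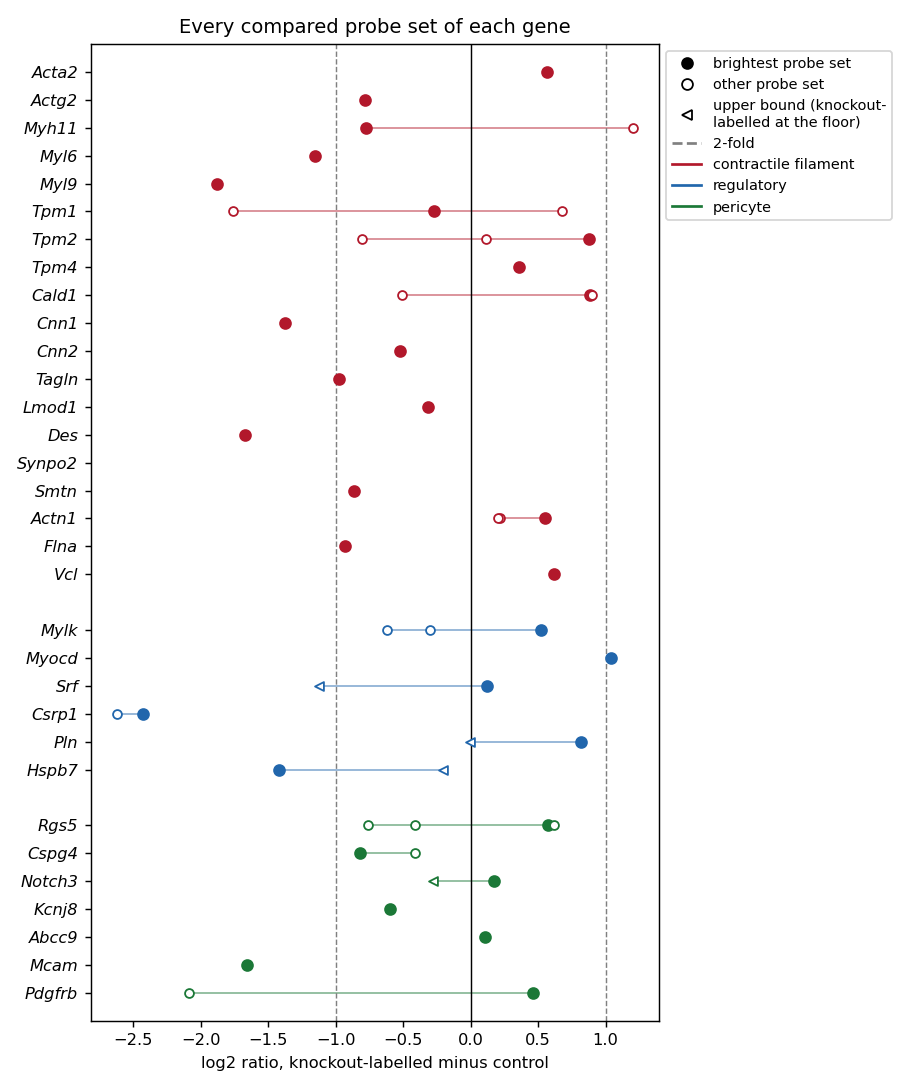
Log2 ratio, knockout-labelled minus control, of each of the 52 probe sets compared, 1 line per gene; filled symbols are the brightest probe set, open symbols the others, and triangles mark upper bounds where the knockout-labelled signal was below the floor. Synpo2 has no point because it was at the floor on both arrays, and Pdgfrb, Tpm1 and Myh11 span 2.55, 2.44 and 1.98.

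Probe sets of 1 gene often disagreed. Of 14 genes with 2 or more probe sets compared, 4 (28.6%) had all of them on 1 side, Csrp1, Hspb7 and Cspg4 lower and Actn1 higher. Over all genes, 45.8% of 3133 such genes had. The 2 shares were not matched for the number of probe sets per gene, and agreement is harder to reach with more of them. Another 17 members rest on 1 probe set compared, among them Myl9, Des, Cnn1, Mcam, Myl6 and Tagln. Counted as probe sets, 11 of 52 were lower by 2-fold or more, where 13.9% of all probe sets compared were, and 2 were higher by as much, where 6.84% were, and their median log2 ratio was -0.31. Taking the next brightest probe set in place of the brightest turned the medians of the regulatory and pericyte genes to -0.41 for both, and that of the contractile genes was -0.65 as before. However, 13 of the contractile genes have 1 probe set compared and kept their value by construction. Of the 5 others, Myh11 went to 1.21, Tpm1 to -1.76 and Tpm2 to 0.11, with Cald1 at 0.90 and Actn1 at 0.22.

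Bright genes had higher ratios on these arrays, and 18 of the 31 genes were in the brightest of 5 equal groups of the genes compared. In that group the median log2 ratio of all genes was 0.31, against -0.24 in the dimmest. The 18 bright genes divided evenly, with 9 above and 9 below the median of their group. Of them, 3 were lower by 2-fold or more, Myl9, Des and Csrp1, where 6.69% of all genes of that brightness were, and none was higher by as much, where 7.45% were. With the trend removed, Acta2 was at 0.03, Tpm4 at 0.02 and Rgs5 at 0.15, near the trend itself, whereas Myl9 was at -2.05 and Tagln at -1.28, past 2-fold.

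**Figure D3:**
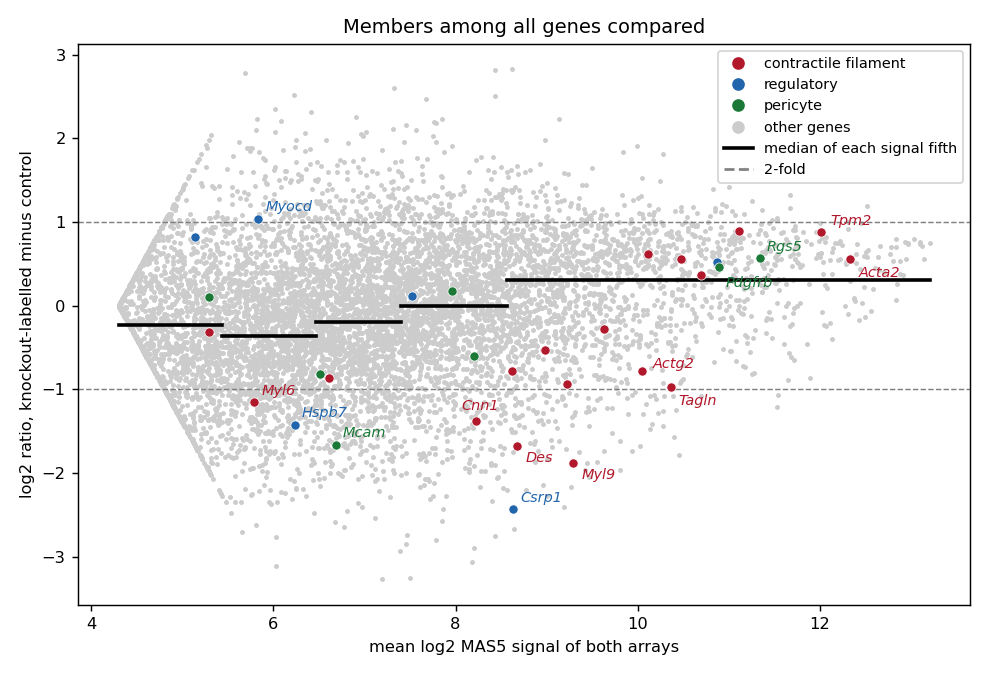
Log2 ratio against mean log2 signal for the 8593 genes compared (grey) and the 31 smooth muscle and pericyte genes (coloured by role), with the median of each of 5 equal groups by signal as a black bar and 2-fold as dashed lines. The bars stand at -0.24 in the dimmest group, -0.36 in the next and 0.31 in the brightest. Csrp1, Myl9, Des, Mcam, Hspb7, Cnn1 and Myl6 lie below the lower dashed line.

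Genes around the contractile apparatus were listed by function. Of 18 genes of contraction signalling compared, 2 passed 2-fold on each side (11.1%), where 13.0% of all genes were lower and 6.21% higher. The median log2 ratio of the list was -0.06. Among the higher genes, Prkg1, the cGMP-dependent kinase that relaxes smooth muscle, had signals of 39.3 and 146 (log2 ratio 1.89). Ppp1r14a (CPI-17), the phosphatase inhibitor of smooth muscle, was lower, with 103 and 36.2 (log2 ratio -1.52), as was its relative Ppp1r14b, with 551 and 243 (log2 ratio -1.18). The members and this list were not tested against each other.

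Cofactors and targets of serum response factor had 3 of 20 genes (15%) past 2-fold, all lower, where 13.0% of all genes were. Their median was -0.27. Csrp2, the relative of Csrp1 in vascular smooth muscle, had signals of 505 and 156 (log2 ratio -1.69). Mrtfa, the coactivator that senses free actin, had 72.4 and 30.3 (log2 ratio -1.26). Zyx, zyxin, a focal adhesion protein that Csrp1 binds, had 222 and 103 (log2 ratio -1.11), but its other probe set had 37.4 on the knockout-labelled array and was below the floor on the control array. Of 19 genes of focal adhesions and dense plaques, 2 passed 2-fold on the lower side (10.5%) and 1 on the higher (5.26%). Of all genes, 6.21% were higher by as much, and the median of this list was -0.27. Tln1, talin 1, gave -1.55 and -0.06 at its 2 probe sets, Palld, palladin, gave -1.03, and Dmd, dystrophin, gave 1.13 and 0.34.

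Many cell types use cytoplasmic relatives of the smooth muscle actins, myosins and calponins. The list of them also held muscle genes such as Flnc and Acta1, and Vim, an intermediate filament gene. Of 12 genes of this mixed list compared, 1 (8.33%) passed 2-fold, where 13.0% of all genes were lower by as much. It was Flnc, the filamin of muscle (log2 ratio -1.36). The median of the list was 0.50, or 0.02 with the trend of ratio on signal removed. Chosen after their values were seen, Actb (0.50), Actg1 (0.43), Myl12a (0.76) and Cnn3 (0.58) were on the higher side at their brightest probe sets. Further probe sets of these genes went as low as -2.77 for Actb and -1.18 for Cnn3. Control probe sets read b-actin at either end of its transcript. Signal at the 3′ end was 5724 and 9066, higher on the knockout-labelled array, and signal at the 5′ end was 2526 and 565, lower on it. The ratio of 3′ to 5′ signal was thus 2.27 and 16.0 for b-actin, and it was 1.49 and 7.25 for Gapdh. Where in their transcripts the probe sets of the 32 genes lie was not analysed here, and the part of this imbalance in their ratios was not tested.

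Among 24 genes of mural cell recruitment, 4 passed 2-fold on the lower side (16.7%) and 1 on the higher (4.17%), around a median of -0.39. Over all genes compared, 13.0% were lower and 6.21% higher by as much. Pdgfb, the endothelial ligand of Pdgfrb, had signals of 63.8 and 21.2 (log2 ratio -1.59). Higd1b, a marker of pericytes, had 51.9 and a value below the floor, at least 2.63-fold lower. Hes1, a target of Notch signalling, had 99.0 and 42.6 (log2 ratio -1.22), and Jag1, the ligand of Notch3 in vessel walls, named after its value was seen, had 62.7 and 30.1 (log2 ratio -1.06). Pdgfa, a ligand of the other receptor of the family, gave 1.19 and -0.25 at its 2 probe sets.

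Markers of other cell types in a uterine digest also differed between the arrays. By 2-fold or more, 13.0% of all genes compared were lower and 6.21% higher. Against the label, stromal cells, all 15 stromal genes were above the floor on at least 1 array, with a summed signal of 32852 and 44808, 1 gene past 2-fold (Hoxa11, log2 ratio -1.85) and a median log2 ratio of 0.06. Esr1, at 18.4 and 19.8, and Hand2, at 21.2 and 22.1, were at the edge of the floor. Bright genes such as Col3a1 and Col1a2 dominate the stromal sum, and the stromal median was -0.06 with the trend of ratio on signal removed. Endothelial markers had 7 of 16 past 2-fold, all lower, and a median of -0.89, with a summed signal of 6039 and 4450, and of the 17 listed only Erg was at the floor on both arrays. Leukocyte markers had 7 of 11 past 2-fold on the lower side and 2 on the higher, with a summed signal of 4654 and 4320 and Cd3e at the floor. Epithelial markers had 3 of 11 lower and none higher, with a summed signal of 2445 and 1963 and Krt19 at the floor. The summed signal of the contractile genes was 21201 and 24392, and that of the pericyte genes 4677 and 6052, both higher on the knockout-labelled array since bright genes such as Acta2, Tpm2, Cald1, Rgs5 and Pdgfrb dominate such a sum. The part of other cell types in the ratios of the smooth muscle and pericyte genes was not tested.

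**Figure D4:**
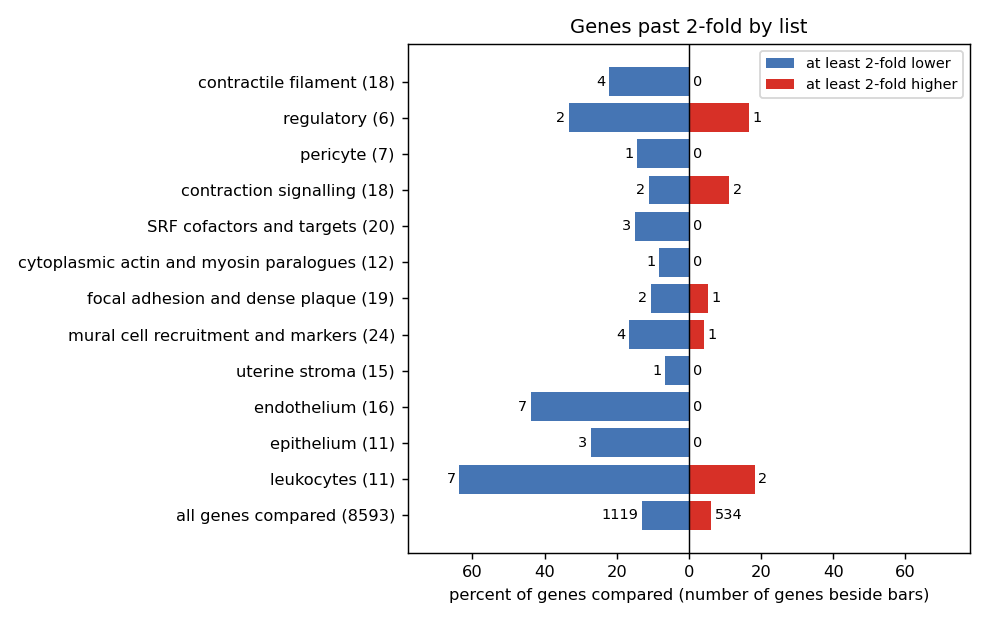
Percent of the genes compared in each list (number in brackets) that were at least 2-fold lower (blue, to the left) or higher (red, to the right) on the knockout-labelled array, with the number of genes beside each bar. The contractile genes (4 of 18 lower) lie above the 13.0% of all genes and below the endothelial list (7 of 16).

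Across settings, 5 genes were at least 2-fold lower at every one that keeps the 2-fold rule, namely Csrp1, Myl9, Des, Cnn1 and Mcam. Of these, Myl9, Des, Cnn1 and Mcam have only 1 probe set compared. Settings that change the choice of probe set could therefore not change their values. Hspb7 and Myl6 were lower throughout but not always by 2-fold, and Myocd was higher throughout and past 2-fold in 8 of 10. In all, 14 of the 31 genes were lower under every setting, 9 were higher under every setting, including Acta2, Tpm2, Cald1 and Rgs5, and 8 took both signs, including Mylk, Srf and Pdgfrb. The lower probe sets of Tpm2 (-0.81), Cald1 (-0.51) and Rgs5 (-0.42 and -0.76) were not read on their own under any setting. Acta2 had no value without _s_at probe sets and was at 0.03 with the trend removed.

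**Figure D5:**
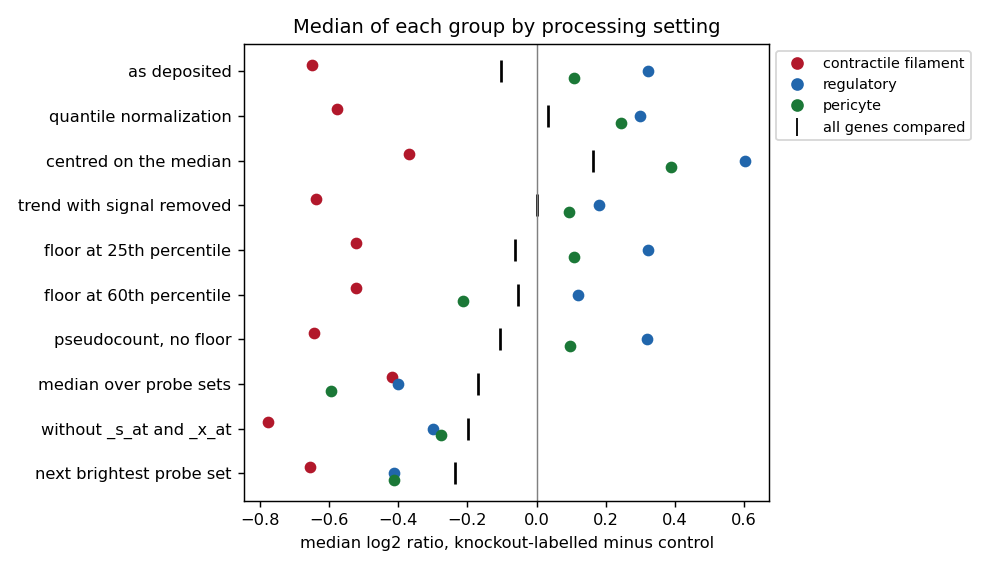
Median log2 ratio of each group (coloured points, set slightly apart in height) and of all genes compared (black marks) under each processing setting. The contractile median stays left of the mark for all genes, from -0.78 to -0.37, and the regulatory and pericyte medians change sides with the choice of probe set.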

How the data were processed

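The deposited table gives each probe set's MAS5 signal, an intensity that the authors left unlogged, and per the submitters' processing notes MAS5 and Affymetrix Expression Console version 1 were used. No source used here states the target of the scaling. The mean after trimming 2% from either end was 150.1 on both arrays, so the scaling was kept. Per the labels' protocols, 100 ng of RNA was amplified with a 3′ labelling kit.

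Groups came from the sample titles. Gene names came from the platform annotation and were updated by Entrez identifier from RefSeq (GRCm38.p6). Of 22626 probe sets, 20380 have 1 symbol and were used. Signals were raised to the 40th percentile of both arrays pooled (19.7) and put on a log2 scale. A gene took the probe set with the highest mean log2 signal, and genes at the floor on both arrays were left out. With 1 array per group a size rule of 2-fold replaced a test. The median of a list stands beside that of all genes, with no set test. The size rule was tested on data simulated from the control array. The simulation had less noise than the probe sets of a gene show, no trend of ratio with signal and no imbalance between transcript ends. It cannot show how the rule does where these are present.

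The members, lists and rules were chosen with earlier results of these data known. All members are named, and of every other list at most 4 genes with the largest ratios past 2-fold, except 1 gene of contraction signalling that is not reported here. Python 3.11.15, pandas 2.3.3 and statsmodels 0.14.6 were used. Alternatives covered scaling, trend, floor, pseudocount, probe set choice and size rule.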

Additional observations from a re-analysis of the deposited data

Results flagged for a closer look

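Control probe sets, which enter no gene result, showed a ratio of 3′ to 5′ signal on the knockout-labelled array above that on the control array. For b-actin it was 16.0 against 2.27, and for Gapdh 7.25 against 1.49. Its part in the ratios of the smooth muscle and pericyte genes was not tested.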

How the results depend on the processing

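Across 12 other settings, 62 of 96 counts and medians of the groups stayed close to their values as reported, and no gene past 2-fold changed direction. Among the genes past 2-fold, only Csrp1 and Hspb7 had more than 1 probe set compared. The cause of each change below was not tested. After median centring, the medians were -0.034 for all members, -0.37 for contractile, 0.60 for regulatory and 0.39 for pericyte genes, and 4 members were at least 2-fold higher. That scaling moved the median of all genes from -0.10 to 0.16, quantile normalization moved it to 0.03, and the share of higher genes among all those past 2-fold went from 32.3% to 63.3% and 46.5%. With quantile normalization 2 members were at least 2-fold higher. With the trend on signal removed (loess span 0.4), 2 were, and the median of all members was -0.49. With a floor at the 60th percentile none was higher, 1 regulatory gene was lower and the pericyte median was -0.21. With a pseudocount of 4.70 and no floor, none was higher. With the median over probe sets the medians were -0.50 for all members, -0.42 for contractile, -0.40 for regulatory and -0.59 for pericyte genes, with 1 regulatory gene lower. Without _s_at and _x_at probe sets they were -0.56 for all members, -0.30 for regulatory and -0.28 for pericyte genes. At 1.5-fold, 14 members were lower and 5 higher, with 9 contractile and 3 pericyte genes lower. At 3-fold, 4 were lower and 0 higher, with 2 contractile genes and 1 regulatory gene lower. After the data had been seen, 2 settings were added. With Myl6 read from a probe set of several symbols the contractile median was -0.42. With the next brightest probe set, 2 members were higher, 2 pericyte genes were lower, and the medians were -0.52 for all members, -0.41 for regulatory and -0.41 for pericyte genes. No paired analysis was possible because each group has 1 array, and for the same reason no array could be left out. Signals near the floor can be noise, which limits Lmod1, Myocd, Pln and Abcc9.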
